A study of Mus musculus with 5 samples.

Results

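The cells described here were the Prg4-high, Col2a1-low cells of the neonatal mouse knee, a population with abundant lubricin mRNA and little type II collagen mRNA. A cell belonged to them if it had at least 50 Prg4 UMIs and fewer than 200 Col2a1 UMIs per 10000 UMIs of the cell and no UMI of Ptprc, the pan-leukocyte gene, or of Pecam1, an endothelial gene. A UMI is a molecular identifier that counts each captured transcript once. The cells were thus chosen by the UMI values of these 4 genes. By this rule 2364 of the 82516 cells that passed the quality filters were chosen, 298 and 615 in the WT pups and 853, 324 and 274 in the mutant pups. The levels of the 4 genes in the cells are given only as a description.

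The libraries came from littermates, with 2 WT pups (pups 1 and 2) and 3 mutant pups (pups 3, 4 and 5), each captured as 1 BD Rhapsody library. C57BL/6J is the strain in the labels, although per the methods the Cre transgene was first made on a mixed B6SJLF1 background. The mutant pups carried 1 conditional Trpv4 p.R594H allele, an activating change in a calcium channel, switched on by Col2a1-Cre. That Cre is driven by a type II collagen promoter and is active in chondrocytes, so the share of the Col2a1-low cells in which the allele had recombined is not known from the files. The sample labels give an age of postnatal day 5, while the series' own account of the design and the methods give day 3. Which pup belonged to which genotype rests on the labels alone, since the counts do not read the allele.

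Prg4 encodes lubricin, a mucin-like glycoprotein secreted into joint fluid that keeps opposing joint surfaces from adhering. It is made by chondrocytes of the superficial zone of articular cartilage and by the fibroblasts that line the synovium, which also make hyaluronan, and it is found in tendon surfaces and sheaths as well. Superficial cells hold less type II collagen than the chondrocytes beneath them, and both the joint lining and the articular surface descend from the interzone, the Gdf5-expressing tissue that forms between cartilage elements in the embryo.

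Sequencing depth and several other properties of the libraries differed between the pups. The deposited matrices held 14003 to 19589 cells and 117746735 to 183322632 UMIs per pup, and any pair of pups shared at most 7 cell barcodes. The Prg4-high, Col2a1-low cells had median depths of 5634 and 5712 UMIs in the WT pups and of 4599, 3640.5 and 4096 in the mutant pups, so that depth differed with genotype in every pup. Xist, the RNA of the inactive X chromosome, was detected in 92.3% and 88.6% of these cells in mutant pups 3 and 4 and in at most 0.365% in the other pups, so both Xist-rich libraries were labelled mutant. A supplementary table of the study lists Xist in WT cells too, unlike the libraries labelled WT here, and which of the labels or the table is in error, if either, cannot be told, so every direction between genotypes below is that of the labels. No label gives the sex of the pups, and the part of sex in the genotype results below was not tested, while that of depth was examined only by the alternative given beside them.

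For comparison, 10021 Col2a1-rich Prg4-high cells (Col2a1 of at least 200), 25982 Prg4-low connective tissue cells (Prg4 under 10, Col2a1 under 200 and Col1a1 of at least 50) and 481 macrophages were taken by rules of the same kind. Macrophages were cells with a Ptprc UMI and a C1qa level of at least 5, and the other classes held no UMI of Ptprc or Pecam1. Macrophages, which do not make lubricin, served as the background from free RNA. At most 1 macrophage per pup reached a Prg4 level of 50, although 17.2% to 32.7% of macrophages held a Prg4 UMI, at median depths of 6554.5 to 10771 UMIs. Summed over cells and expressed as CPM, a count scaled to the same total of UMIs in every pup and class, Prg4 stood at 19540, 26660, 26850, 21360 and 22550 in the Prg4-high, Col2a1-low cells of pups 1 to 5. It stood at 117 to 525.5 CPM in macrophages. The Prg4 gene lies at chr1:150449412-150466221 (mm10). Neither limit of the rule fell in a gap between populations. Just above the Prg4 limit, within 10 units, lay 16 to 43 of the cells per pup, and just below it lay 25 to 68 cells that met the rest of the rule. The 50 units below the Col2a1 limit held 58, 91, 135, 58 and 62 cells in pups 1 to 5, and the interval of the same width above it held 46, 90, 148, 64 and 48.

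The label of these cells as superficial and synovial was examined with Cilp, Vit and Tesc, the other marker genes proposed for them. Cilp (chr9:65265180-65280614), which encodes cartilage intermediate layer protein, stood at 767 CPM and 771 CPM in the WT pups and at 1353, 806 and 871 CPM in the mutant pups. In Col2a1-rich Prg4-high cells Cilp was 174.5 to 312.6 CPM, in connective tissue 68.8 to 96.1 CPM and in macrophages at most 2.18 CPM. Cilp was thus higher in the Prg4-high, Col2a1-low cells of every pup than in any pup's cells of the other classes.

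Vit (chr17:78508051-78627409), which encodes the extracellular matrix protein vitrin, ranged from 359 to 552 CPM, above the 204 to 325 CPM of Col2a1-rich cells and the 15.6 to 32.4 CPM of connective tissue. Tesc (chr5:118027743-118061878), which encodes a calcium-binding EF-hand protein, ranged from 18.7 to 31.0 CPM and overlapped the 21.3 to 30.9 CPM of Col2a1-rich cells. Tesc therefore marked both kinds of Prg4-high cell alike in range, and both lay above connective tissue, where it reached at most 1.40 CPM. With every cell thinned to 2000 UMIs, Cilp was detected in 30.3% to 46.9% of the cells, Vit in 36.4% to 46.6% and Tesc in 3.28% to 5.86%. Shares in Col2a1-rich cells were 15.6% to 21.1%, 26.3% to 35.8% and 4.22% to 6.19%, and macrophages at that depth held a Cilp UMI in no cell and a Vit UMI in at most 2.04% of cells.

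**Figure D1:**
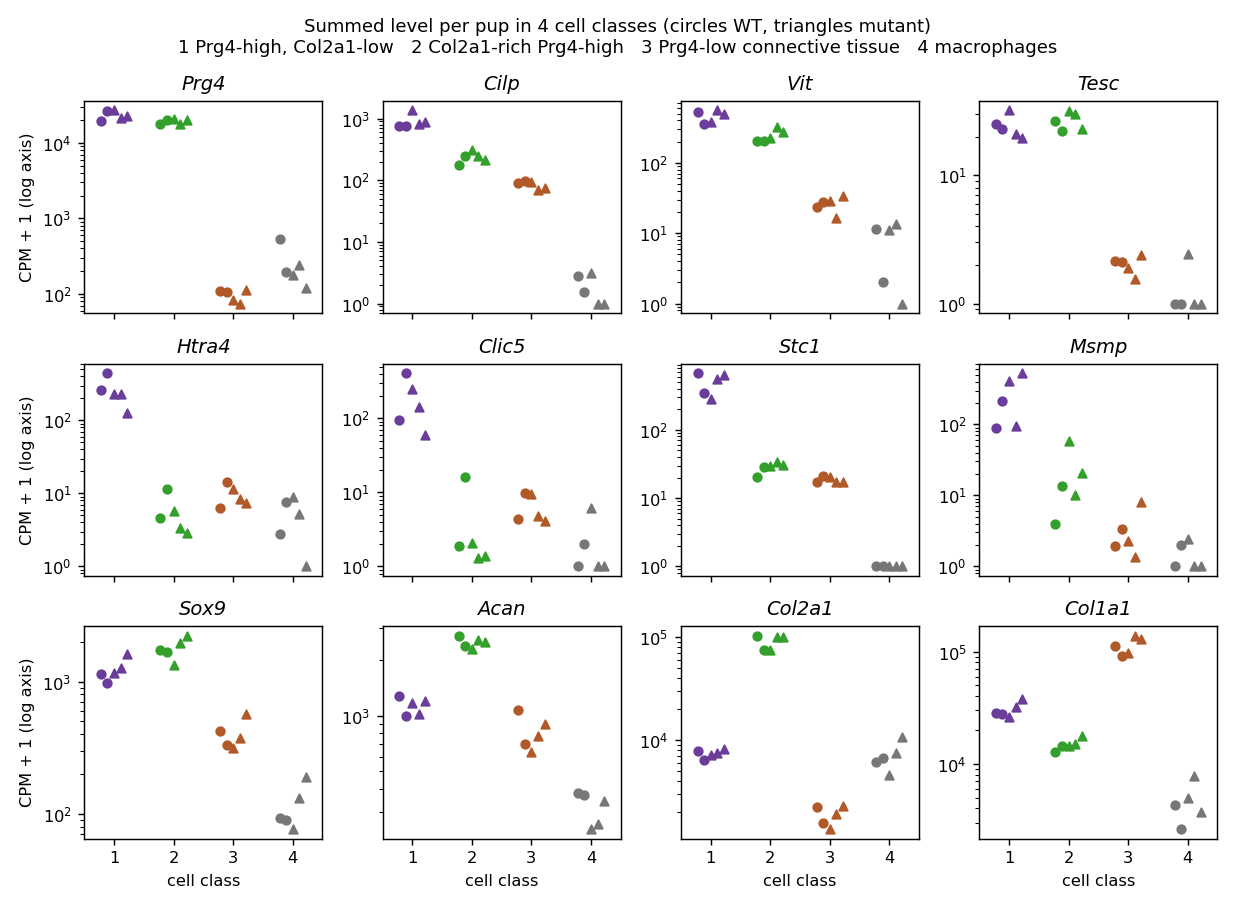
Summed level of 12 genes (CPM + 1, log axis) in each pup for 4 cell classes, numbered on the horizontal axis, with circles for WT and triangles for mutant pups. Cilp, Htra4, Clic5, Stc1 and Msmp are higher in the Prg4-high, Col2a1-low cells of every pup than in the other classes, and Tesc overlaps with Col2a1-rich cells. Sox9 and Acan lie between Col2a1-rich cells and connective tissue within every pup. Across pups the range of Sox9 overlaps with Col2a1-rich cells and that of Acan with connective tissue.

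Of the cartilage genes, Acan and Sox9 both lay below Col2a1-rich cells and above connective tissue within every pup. Across pups the range of Acan overlapped with connective tissue and that of Sox9 with Col2a1-rich cells. Sox9, the master transcription factor of chondrocytes, was 982 to 1628 CPM, compared with 1323 to 2211 CPM in Col2a1-rich cells and 315 to 569 CPM in connective tissue. Acan, which encodes the large proteoglycan aggrecan, was 988 to 1282 CPM against 2293 to 2699 CPM in Col2a1-rich cells, 631 to 1072 CPM in connective tissue and 242 to 379 CPM in macrophages. For Col2a1, a gene of the rule, the median cell held 49.4 to 66.9 UMIs per 10000 UMIs, against 4.22 to 8.91 in macrophages, and the summed level of 6352 to 8170 CPM lay within that of macrophages (4604 to 10660 CPM). Ucma and Matn1, matrix genes of deeper chondrocytes, stood at 80.7 to 173 CPM and 28.6 to 66.2 CPM, below their summed levels of 245 to 579 CPM and 163 to 724 CPM in macrophages. For the same total of UMIs, the summed Col2a1 level of macrophages lay far above that of their median cell. Macrophage sums of cartilage genes therefore need not measure free RNA alone, and how many cells made them up was not examined.

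Summed over all the cells, Col1a1 and the fibrous matrix list lay between the comparison classes. Col1a1, a chain of type I collagen, was 26000 to 38100 CPM in the Prg4-high, Col2a1-low cells, 12790 to 17630 CPM in Col2a1-rich cells and 92130 to 137800 CPM in connective tissue. The 17 genes of the fibrous matrix list made up 7.71% to 9.56% of UMIs, against 6.87% to 7.55% in Col2a1-rich cells and 19.9% to 27.1% in connective tissue. These sums owed much to the tendon-like subcluster 4 described below. Col1a1 was 85770 CPM there and 14880 CPM in the other Prg4-high, Col2a1-low cells, and the list made up 18.8% and 5.54% of UMIs. The 19 genes of the chondrocyte matrix list, which includes Col2a1, a gene of the rule, made up 1.66% to 2.19%. Trpv4 itself (chr5:114622152-114658435), the mutated channel, was 67.0 and 40.5 CPM in the WT pups and 59.9, 79.8 and 55.3 CPM in the mutant pups, below the 126 to 183 CPM of Col2a1-rich cells and above the 16.0 to 34.5 CPM of macrophages. Trpv4 levels of the genotypes overlapped, and a knock-in need not change the level of its mRNA.

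Markers of macrophages, endothelial cells and granulocytes were low in these cells, while single pericyte genes were not. The rules had left out cells with a Ptprc or Pecam1 UMI and had taken macrophages by Ptprc and C1qa. Low leukocyte and endothelial levels follow in part from that choice and are a description. All 10 macrophage genes together made up 0.000234% to 0.00354% of UMIs, against 1.19% to 1.33% in macrophages, and C1qa was at 0 in pups 4 and 5 and at most 3.03 CPM elsewhere. The 8 endothelial genes made up 0.00171% to 0.00314%, with Cdh5 at 0 in pups 4 and 5, against 0.000696% to 0.00119% in Col2a1-rich cells and 0.00111% to 0.00187% in connective tissue. The granulocyte list reached at most 0.000361%, with 3 of its 7 genes at 0. Erythroid genes were less even, at 0.00311% to 0.175% of UMIs across pups. The 8 pericyte genes made up 0.0709% to 0.150%, above the 0.0244% to 0.0511% of connective tissue, mostly from Rgs5 (229 to 913 CPM) and Cspg4 (465 to 628 CPM), while Kcnj8 reached at most 4.20 CPM. Tendon genes made up 3.20% to 4.51%, against 10.0% to 14.7% in connective tissue, and most of that share was Col1a1, which is also a gene of the fibrous matrix list. Connective tissue had been chosen in part by its Col1a1 level. Tnmd, which encodes tenomodulin, was 114 to 329 CPM against 839 to 1924 CPM in connective tissue, and Scx, the tendon transcription factor scleraxis, was 6.94 to 10.7 CPM against 32.7 to 46.0 CPM. Osteoblast genes made up 0.00614% to 0.0607%, highest in pup 3. The part of these other cell types in the levels given here was not tested.

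Genes that led the Prg4-high, Col2a1-low cells were ranked by their ratio to both Col2a1-rich Prg4-high cells and Prg4-low connective tissue cells, taking the lowest ratio over the 5 pups with 5 CPM added to each level. Among the 3439 genes averaging 50 CPM or more, 74 had a ratio of at least 1.5, 25 of at least 2, 14 of at least 3 and 7 of at least 5. These ratios are a description, since the classes were cut from the same counts. The 7 leading genes were Htra4, Stc1, Clic5, Calb2, Msmp, Aldh1a3 and Col22a1.

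Htra4 (chr8:25024928-25038962), a secreted serine protease of the HtrA family, led with a lowest ratio of 11.4 and stood at 124 to 442 CPM, against means of 4.64 CPM in Col2a1-rich cells and 8.51 CPM in connective tissue. Stc1 (chr14:69029289-69041401), which encodes the secreted glycoprotein stanniocalcin-1, had a lowest ratio of 8.54 and stood at 673 and 341 CPM in the WT pups and at 280, 546 and 637 CPM in the mutant pups. No Stc1 UMI was found in the macrophages of any pup, and connective tissue held 16.3 to 19.8 CPM, so the Stc1 signal was separate from free RNA in every pup. Clic5 (chr17:44134762-44280169), a chloride intracellular channel family gene known from synovial lining fibroblasts, ranged more widely, from 57.6 to 405 CPM, with a lowest ratio of 7.68. Among the subclusters described below, Htra4, Clic5, Calb2 and Col22a1 came mostly from subcluster 5, which held 9.43% of the cells. They stood at 1714, 1532, 405 and 1350 CPM there and at no more than 54.4, 18.3, 0.555 and 25.7 CPM in subclusters 1 to 4 and 6, while subcluster 7, of 15 cells, held 457, 220, 359 and 204 CPM.

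Msmp, which encodes a small secreted microseminoprotein, stood at 89.2 to 525 CPM with a lowest ratio of 6.57. Aldh1a3, an enzyme that makes retinoic acid, had a lowest ratio of 6.34 and a mean of 166.5 CPM, and Col22a1, a collagen of tissue junctions, a lowest ratio of 5.14 and a mean of 183.7 CPM. Both ligands of the epidermal growth factor receptor among the 20 leading genes, Hbegf and Btc, had lowest ratios of 3.86 and 4.14. The remaining leaders were Calb2, Rab37, Tspan15, Cystm1, Rgs5, Cilp, Dlx3, Apold1, Adamts16, Gprc5a, Ucp2 and Ntn1, with lowest ratios from 2.20 for Ntn1, a netrin, to 7.66 for Calb2, the calcium-binding protein calretinin. Rab37, Tspan15, Cystm1, Rgs5 and Adamts16 also came mostly from subcluster 5, at 532, 1367, 336, 3350 and 435 CPM. They reached at most 3.8, 17.2, 7.8, 195 and 12.2 CPM in subclusters 1 to 4 and 6, and 81.6, 302, 131, 506 and 98.0 CPM in subcluster 7. Ucp2, a mitochondrial carrier gene, averaged 72.5 CPM in these cells and 1008 CPM in macrophages, so that it marked the cells only against the other connective tissue classes.

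Creb5, a transcription factor known to drive Prg4 in the superficial zone, was 864 to 1062 CPM, above the 506 to 603 CPM of Col2a1-rich cells and the 172 to 239 CPM of connective tissue. Erg, an interzone and articular transcription factor, was 216 to 304 CPM. Gdf5, the interzone growth factor, was 21.0 to 29.7 CPM and overlapped the 20.8 to 26.8 CPM of Col2a1-rich cells. Not all articular surface genes led these cells. In cells thinned to the same depth, Erg was detected in 33.8% to 44.9%, overlapping the 29.4% to 36.8% of Col2a1-rich cells. Fbln7 was at 8.03% to 10.5%, below the 15.35% to 21.3% of Col2a1-rich cells. Thbs4 was at 24.45% to 27.2%, below the 40.8% to 55.8% of connective tissue. Clu and Sox5 overlapped with Col2a1-rich cells, and Abi3bp, Cd44 and Tgfbr2 with connective tissue. Creb5, Cytl1, Cilp and Vit lay above both classes. Hyaluronan synthase Has1 was 132 to 351 CPM, and at most 32.96 CPM in Col2a1-rich cells. Not every lining marker led these cells. With cells thinned to the same depth, Vcam1 was detected in 0.365% to 4.03%, against 4.64% to 10.55% in connective tissue. Htra1 was detected in 12.8% to 19.0%, against 30.5% to 41.5% in connective tissue and 14.4% to 20.9% in Col2a1-rich cells. Pdpn overlapped with connective tissue, at 15.4% to 19.5% against 15.3% to 19.25%. Has1 lay above connective tissue, at 15.8% to 23.5% against 4.48% to 11.75%. Thy1, a gene of fibroblasts beneath the lining, reached at most 7.59 CPM in these cells and 32.6 to 63.0 CPM in connective tissue.

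Among themselves the cells were not uniform. Leiden clustering of Pearson residuals, run without the genes of the rule, gave 7 subclusters, and the genes that lead a subcluster are a description because the same counts formed it. Subcluster 5, with 223 cells (9.43%), met 10 of 13 synovial lining markers and 6 of its 10 leading genes came from that list, so it was synovial lining-like. There Clic5 was 1532 CPM, Tspan15 1367 CPM, Htra4 1714 CPM, Cd55 951 CPM and Hbegf 5290 CPM. In subclusters 1 to 4 Hbegf reached at most 357 CPM and the other genes at most 54.4 CPM, and in subcluster 7, of 15 cells, the 5 genes stood between 131 CPM (Cd55) and 1404 CPM (Hbegf). Rgs5, known from pericytes, was also among its leading genes with 3350 CPM, and the cartilage genes Sox9 and Acan were at 134 and 138 CPM, the lowest of the 7 subclusters for both.

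Subcluster 3, with 396 cells (16.8%), met 8 of 16 articular surface markers and was articular surface-like. The 8 were Prg4, a gene of the rule, and Cilp, Vit, Tesc, Creb5, Erg, Gdf5 and Cytl1, which the rule did not use. It was led by Msmp (1299 CPM), Wnt9a (131 CPM), a Wnt ligand of the joint interzone, and Cilp (3572 CPM), and also held the highest summed levels of Vit (981 CPM), Tesc (87.1 CPM) and Bmp2 (892 CPM). It met 6 of 12 joint interzone markers as well. In the lining-like subcluster Cilp was 24.0 CPM, Vit 23.5 CPM and Tesc 2.35 CPM. These genes took part in forming the subclusters, so their levels there are a description.

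Subcluster 4, with 356 cells (15.1%), met 8 of 10 tendon markers, with Tnmd at 774 CPM, Kera at 211 CPM and Col1a1 at 85773 CPM, and was tendon-like, although per the methods tendon and ligament had been dissected away and adherent tissue digested off before the cells were taken. Its first gene by fold was Ibsp, a bone sialoprotein gene of osteoblasts and hypertrophic chondrocytes, and over all Prg4-high, Col2a1-low cells Ibsp came to 473 CPM in pup 3 and 73.6 CPM in pup 2 but to at most 4.47 CPM in the other pups. Subcluster 6, with 88 cells (3.72%), met all 20 cell cycle markers, with Top2a at 1893 CPM. Markers of this list were also met by the lining-like subcluster 5 (15 of 20) and by subcluster 7 (16 of 20), and Mki67 was 200 CPM in subcluster 5, 1057 CPM in subcluster 6 and 1282 CPM in subcluster 7. Median depths were 8758, 7175.5 and 6040 UMIs in subclusters 5, 6 and 7, against 4310, 4146, 4348 and 6315.5 in subclusters 1 to 4. Detection enters these tallies, and in subcluster 7, with only 15 cells, very few cells with a UMI are enough to meet it. The part of depth and of cell number in the tallies was not tested. Subcluster 7 held 15 cells led by hemoglobin genes, which made up most of its erythroid share of 12.9% of UMIs, and it was found in 4 of the 5 pups.

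The 2 largest groups stayed unnamed. Subcluster 1, with 855 cells (36.2%), was led by Notum, a secreted Wnt-inactivating enzyme, Npnt and Cadm1, at 84.5, 160.0 and 164 CPM. Subcluster 2, with 431 cells (18.2%), was led by Acta2 and Rgs16 and by the immediate-early genes Fos (10070 CPM) and Egr1 (5934 CPM). Its dissociation response list, genes known to rise when tissue is digested, made up 3.02% of UMIs against 0.72% in the other cells.

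**Figure D2:**
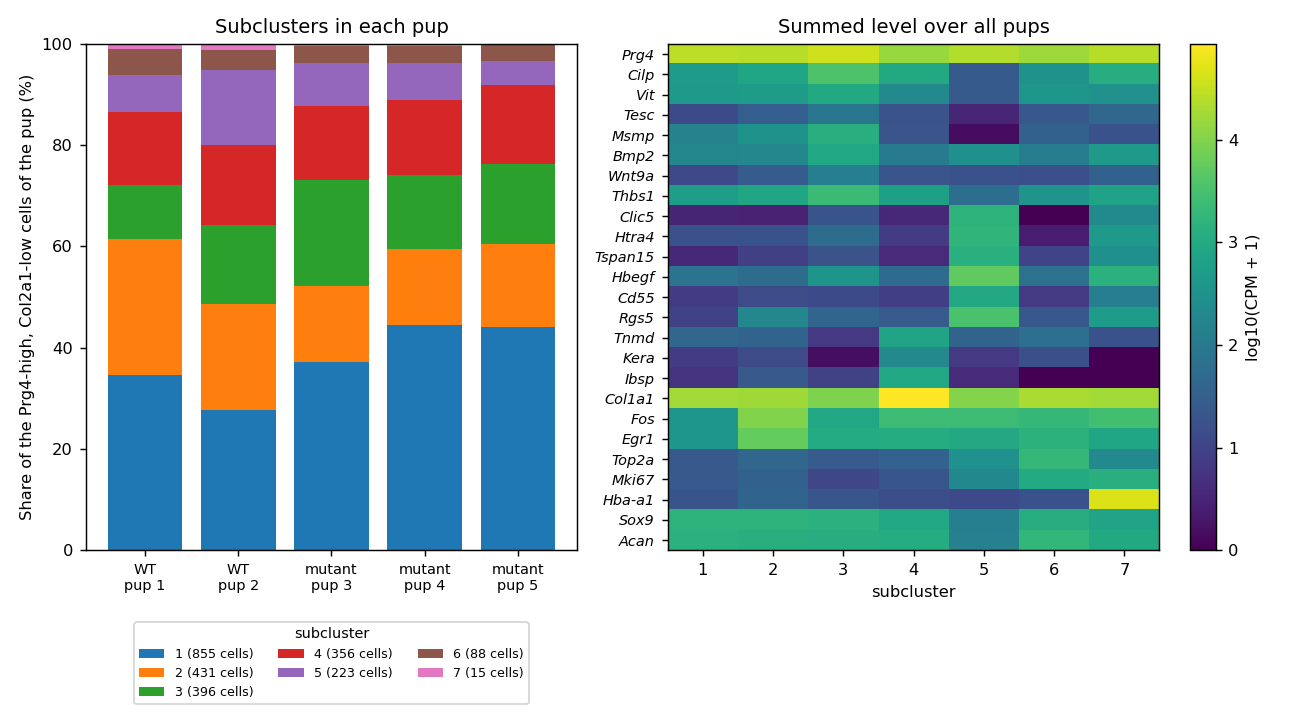
Left, the share of each pup's Prg4-high, Col2a1-low cells (%) in each of 7 subclusters, as stacked bars for 2 WT and 3 mutant pups. Right, the summed level of 25 genes per subcluster on a log10(CPM + 1) colour scale, where lining genes such as Clic5 are bright in subcluster 5, Cilp, Msmp and Wnt9a in subcluster 3, Tnmd and Ibsp in subcluster 4 and Top2a in subcluster 6.

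The composition varied from pup to pup. Lining-like cells formed 7.38% and 14.8% in the WT pups and 8.56%, 7.41% and 4.75% in the mutant pups, and articular surface-like cells 10.7% and 15.6% against 20.9%, 14.5% and 15.7%. Both pairs of ranges overlapped. The ranges of the 2 largest groups did not, with subcluster 1 at 34.6% and 27.6% in the WT pups and 37.2%, 44.4% and 44.2% in the mutant pups, and subcluster 2, the group with the high dissociation response, at 26.8% and 21.0% against 15.0%, 15.1% and 16.4%. The tendon-like share was the most even, between 14.4% and 15.8% in every pup. Subcluster 6 formed 5.03% and 4.07% of the cells in the WT pups and 3.28%, 3.40% and 3.29% in the mutant pups. Those ranges did not overlap either, but they rest on 15 and 25 cells in the WT pups and on 28, 11 and 9 in the mutant pups. Separate ranges are common with 2 against 3 pups. Among the genes tested between the genotypes, every mutant pup lay below both WT pups for 14.1% and above both for 14.3%. The subclusters were formed from genes that include cell cycle genes, so their sizes are a description without a test.

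The question posed by the design was whether the Trpv4 mutation changed these cells in number or in expression. Their share of all kept cells was 1.97% and 3.71% in the WT pups and 4.46%, 1.81% and 1.98% in the mutant pups. The highest share was in mutant pup 3 and the next in WT pup 2, with the other 3 pups close together. The means were 2.84% ± 1.23 (SD, n = 2) and 2.75% ± 1.48 (SD, n = 3), a difference of -0.0918 percentage points (exact 2-sided permutation test over 10 groupings, p = 0.9, where 0.1 is the smallest p that 2 against 3 pups allow). The difference was smaller than the spread between pups of 1 genotype, and its sign depended on single pups.

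**Figure D3:**
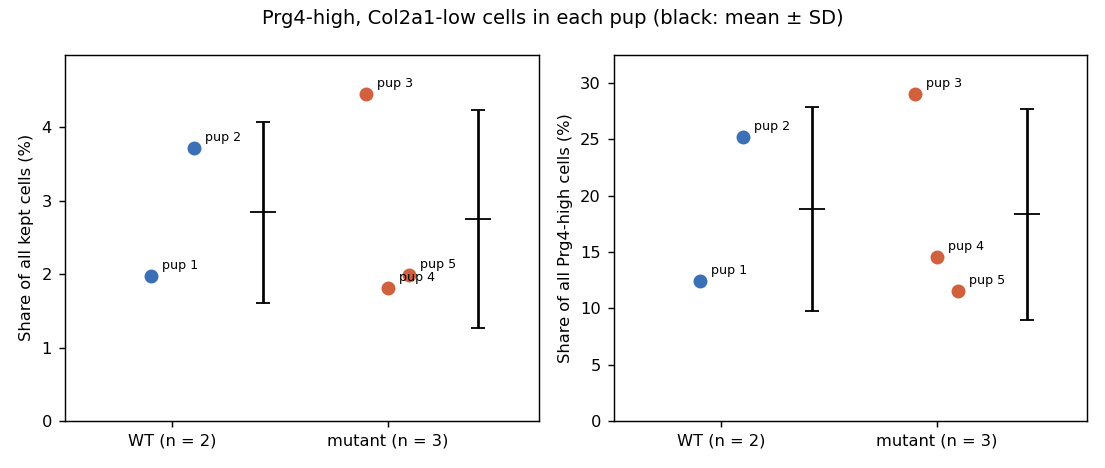
Share of Prg4-high, Col2a1-low cells among all kept cells (left) and among all Prg4-high cells (right), in %, with 1 point per pup and the mean ± SD of each genotype in black. Of kept cells the WT pups hold 1.97% and 3.71%, both within the 1.81% to 4.46% of the mutant pups.

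Between the WT and mutant pups, 6 of 10372 genes passed the test (edgeR quasi-likelihood on UMI counts summed per pup, Benjamini-Hochberg adjusted p at most 0.05), a share of 0.0578%. Lower in the mutant pups were 5 genes (0.0482% of those tested), and each of them is known to act in mitosis or to be made mostly in dividing cells. They were Top2a, which encodes the DNA-untangling topoisomerase II alpha, Mki67, which encodes the proliferation antigen Ki-67, Cenpf and Cenpe, which encode kinetochore proteins, and Prc1, which encodes a protein of the spindle midzone. Fam180a, a gene of little-known function, was higher in the mutant pups.

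Top2a (chr11:98992947-99024199) stood at 235 and 208 CPM (with TMM scaling, as for all values of the genotype test) in the WT pups and at 127.1, 127.3 and 128.3 CPM in the mutant pups. The mutant pups were close to each other and all below both WT pups, with a log2 fold change of -0.80 (SE 0.12, edgeR adjusted p = 0.0228). Mki67 (chr7:135689784-135716450) stood at 217 and 146 CPM against 63.9, 53.8 and 81.7 CPM. The groups did not overlap, and the log2 fold change of -1.45 (SE 0.19, edgeR adjusted p = 0.0228) was the largest of the 6 with all cells.

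Cenpf (chr1:189640606-189688107) stood at 65.0 and 63.7 CPM against 34.1, 26.5 and 23.7 CPM, a log2 fold change of -1.12 (SE 0.18). Cenpe (chr3:135212563-135273540) stood at 47.5 and 41.6 CPM against 21.7, 12.1 and 13.9 CPM, a log2 fold change of -1.34 (SE 0.22). Prc1 (chr7:80294445-80316259) stood at 79.5 and 84.3 CPM against 45.4, 39.4 and 48.2 CPM, a log2 fold change of -0.88 (SE 0.15). In all of these the mutant pups lay below both WT pups, with the same edgeR adjusted p of 0.0228 for each gene.

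Fam180a (chr6:35312743-35326141) stood at 234 and 235 CPM in the WT pups and at 372.5, 411 and 385 CPM in the mutant pups, a log2 fold change of 0.73 (SE 0.12, edgeR adjusted p = 0.0228). With every cell thinned to 2000 UMIs, it was detected in 35.6% and 34.8% of the cells of the WT pups and in 46.5%, 49.4% and 47.1% of those of the mutant pups, so that a larger share of cells held the transcript in each mutant pup. In Col2a1-rich cells the shares were separate as well, at 41.2% and 46.0% in the WT pups and 51.6%, 50.9% and 47.9% in the mutant pups. In connective tissue they overlapped, at 17.3% and 12.7% against 13.1%, 16.9% and 20.3%. In macrophages the share was 2.56% to 6.25%. Fam180a had been called from sums of the Prg4-high, Col2a1-low cells, so its detection there is a description. How many of all genes had separate ranges of detection was not computed in either class. In Col2a1-rich cells, which came from the same pups, no gene passed the genotype test.

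**Figure D4:**
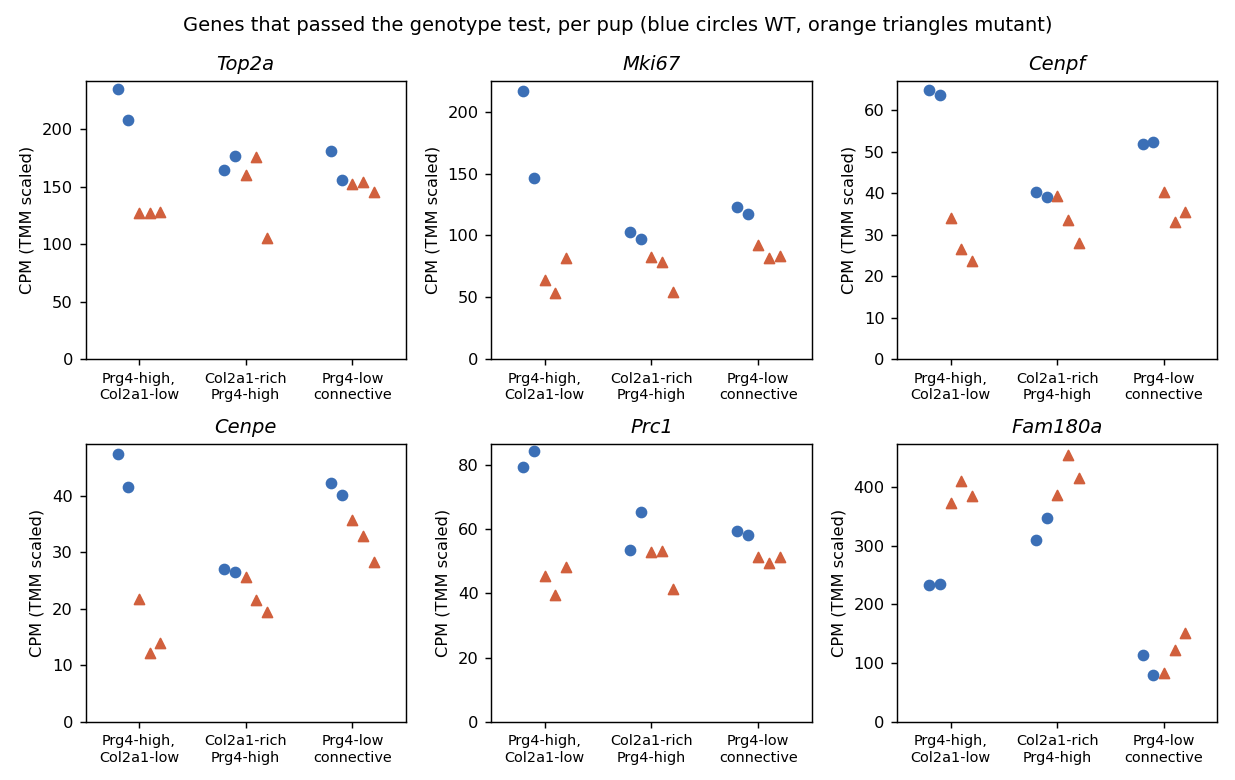
TMM-scaled CPM of the 6 genes that passed the genotype test, with 1 point per pup (blue circles WT, orange triangles mutant), in Prg4-high, Col2a1-low cells and in the other connective tissue classes. In the left column of each panel the WT and mutant points are separate, with 5 genes lower and Fam180a higher in the mutant pups.

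Across all 10372 genes every mutant pup lay below both WT pups for 14.1% of genes and above both for 14.3%, so that this pattern alone was common. In the cell cycle list 3 of 20 genes passed the test, all lower in the mutant pups (Mki67, Top2a and Cenpf), and 13 of 20 had every mutant pup below both WT pups. The median log2 fold change of the list was -0.66, against -0.0071 over all genes tested. Over all 10372 genes tested, 5292 had a negative value. Of the 20 genes of the list 18 had a negative value and 2 a positive one, Mcm3 (0.18) and Mcm5 (0.07). Among those that did not pass were Tpx2, a spindle assembly factor, at -0.86 (SE 0.17, edgeR adjusted p = 0.0858), and Nusap1, a spindle protein, at -0.84 (SE 0.18, edgeR adjusted p = 0.107). Pcna, the replication clamp, was at -0.05 (SE 0.14) and Mcm6, of the replicative helicase, at -0.02 (SE 0.15), while Rrm2, a subunit of ribonucleotide reductase, was at -0.67 (SE 0.19, edgeR adjusted p = 0.277). Rrm2, Mcm3, Mcm5, Tpx2, Nusap1, Pcna and Mcm6 were chosen after their values were seen.

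**Figure D5:**
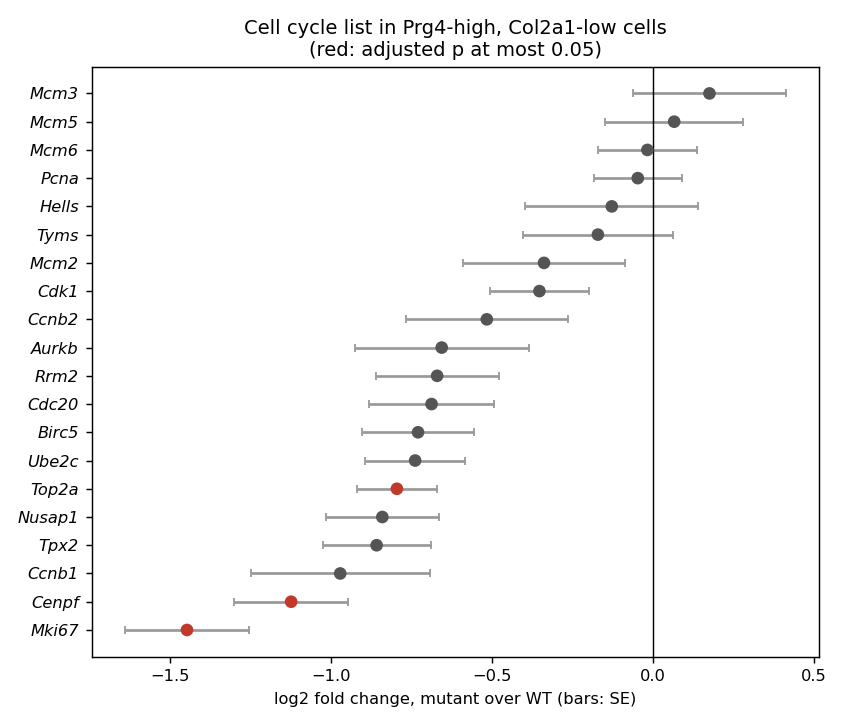
Log2 fold change of mutant over WT pups with its standard error for the 20 genes of the cell cycle list in Prg4-high, Col2a1-low cells, with genes past the edgeR threshold in red. Mki67, Cenpf and Top2a are red and lower in the mutant pups, and Pcna and Mcm6 lie near 0.

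A sum per pup cannot tell fewer dividing cells from less RNA per dividing cell. In cells thinned to 2000 UMIs, at least 3 UMIs of the cell cycle list were found in 14.1% and 10.4% of the cells of the WT pups and in 10.3%, 10.5% and 8.03% of those of the mutant pups. These shares overlapped between the genotypes. At that depth 4 of the 5 lower genes were detected in separate ranges. The 5 genes had been called from sums of these same cells, so their detection is a description and no further support. The share of all genes with separate ranges of detection was not computed. Mki67 was found in 10.4% and 9.27% of the cells against 5.28%, 6.17% and 6.20%, and Prc1 in 7.38% and 6.34% against 3.87%, 3.40% and 3.28%. Cenpe was found in 5.03% and 3.58% against 2.35%, 1.24% and 2.92%, and Cenpf in 4.03% and 5.04% against 2.81%, 2.16% and 3.65%. The fifth, Top2a, was detected in 11.4% and 7.48% against 7.50%, 6.79% and 6.93%, with mutant pup 3 just above WT pup 2.

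The genotype calls were few, and their number changed with the cells and pups that entered. Without the 88 cells of subcluster 6 no gene passed (937 at an unadjusted p under 0.05), and without mutant pup 4 no gene passed (673), against 983 genes at an unadjusted p under 0.05 with all pups and cells. The fold changes moved less than the calls. Mki67 was at -1.63 and Top2a at -0.94 on the log2 scale without subcluster 6 (edgeR adjusted p = 0.114 and 0.0854), and at -1.33 and -0.79 without mutant pup 4 (adjusted p = 0.376 for both). Leaving out WT pup 2, mutant pup 3 or mutant pup 5 gave 27, 13 and 17 calls, and DESeq2 gave 10, of which Mki67, Top2a and Fam180a were shared, while it gave no adjusted p for Cenpe, Cenpf and Prc1. With each cell thinned to 2000 UMIs, which removed the depth difference between cells, 6 genes passed, of which 3 were among those of the full data (Mki67, Top2a and Fam180a). There Cenpf was at -1.16 (edgeR adjusted p = 0.140), Cenpe at -0.96 (adjusted p = 0.468) and Prc1 at -0.95 (adjusted p = 0.203) on the log2 scale. Between the Xist-low pups alone (2 WT and mutant pup 5) 54 passed, 2 of them among the 6 of the full data. With a single mutant pup the spread came from the 2 WT pups alone and that pup was assumed to vary like them, so this count is no measure of the part of sex. In tests on simulated data of this size the same fit also made calls where no change had been put in, at times in greater number than here.

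The promoters of the 5 lower genes were read because cell cycle genes of late phases are known to carry a CHR element, bound by the DREAM and MuvB complexes, often with CCAAT boxes, bound by NF-Y. Each sequence runs from 250 bases before to 50 bases after the annotated start (RefSeq, GRCm38.p6), 5′ to 3′ on the gene's strand, in lower case. Capitals mark TTTGAA, the core of the CHR, and CCAAT, each searched on both strands, and the motifs can overlap by a base. Of the 2 Prc1 entries, which overlap, the one further upstream is shown.
Top2a, chr11:99024140-99024439, minus strand: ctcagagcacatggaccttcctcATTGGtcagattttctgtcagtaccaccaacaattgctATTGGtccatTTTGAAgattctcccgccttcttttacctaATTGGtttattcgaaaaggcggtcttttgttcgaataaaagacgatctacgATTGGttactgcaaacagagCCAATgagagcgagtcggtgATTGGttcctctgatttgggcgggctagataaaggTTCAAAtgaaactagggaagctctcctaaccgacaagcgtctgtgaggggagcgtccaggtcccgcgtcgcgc
Mki67, chr7:135716330-135716629, minus strand: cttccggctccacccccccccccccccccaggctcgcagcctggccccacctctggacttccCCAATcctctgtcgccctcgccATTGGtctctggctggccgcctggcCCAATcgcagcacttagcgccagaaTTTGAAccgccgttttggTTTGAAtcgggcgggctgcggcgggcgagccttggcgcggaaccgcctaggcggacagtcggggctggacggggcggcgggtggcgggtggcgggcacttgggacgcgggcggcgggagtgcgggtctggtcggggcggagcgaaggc
Cenpf, chr1:189688037-189688336, minus strand: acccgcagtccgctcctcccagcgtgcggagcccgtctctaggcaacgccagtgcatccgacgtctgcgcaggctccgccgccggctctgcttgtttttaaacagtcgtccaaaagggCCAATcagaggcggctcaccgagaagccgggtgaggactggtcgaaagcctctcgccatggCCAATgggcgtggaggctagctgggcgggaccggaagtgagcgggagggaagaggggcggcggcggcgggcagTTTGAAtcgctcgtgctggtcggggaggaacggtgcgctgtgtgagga
Cenpe, chr3:135212313-135212612, plus strand: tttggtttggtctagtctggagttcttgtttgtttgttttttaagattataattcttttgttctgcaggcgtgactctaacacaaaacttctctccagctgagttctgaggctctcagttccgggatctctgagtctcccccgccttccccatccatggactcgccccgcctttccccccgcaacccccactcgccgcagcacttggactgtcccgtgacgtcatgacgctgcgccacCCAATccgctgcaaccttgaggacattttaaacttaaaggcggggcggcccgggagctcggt
Prc1, chr7:80294201-80294500, plus strand: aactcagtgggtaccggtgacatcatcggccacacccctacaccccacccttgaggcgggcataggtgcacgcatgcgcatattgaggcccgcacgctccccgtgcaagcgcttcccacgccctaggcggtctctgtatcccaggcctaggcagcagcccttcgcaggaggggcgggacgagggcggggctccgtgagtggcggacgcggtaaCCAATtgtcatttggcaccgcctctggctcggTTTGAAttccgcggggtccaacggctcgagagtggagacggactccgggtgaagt

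A CHR match lay in the windows of Top2a, Mki67, Cenpf and Prc1, and none lay in that of Cenpe. In all 32851 promoters of this length, 17.89% held a CHR match, 37.41% a CCAAT match and 6.953% both. Top2a had CHR matches beginning 179 and 23 bases before the start and 6 CCAAT matches, and Mki67 had CHR matches 116 and 98 bases before the start and 3 CCAAT matches. In Prc1 the CHR match began 5 bases before the start shown. Of the 18 cell cycle list genes with a promoter entry, 8 held a CHR match and 14 a CCAAT match. A match of letters is a description and not a bound site, and the motifs were chosen after the called genes were known.

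No gene of the other lists passed the genotype test. For the given markers that the rule did not use, the log2 fold changes were 0.44 (SE 0.20) for Cilp, 0.14 (SE 0.22) for Vit and 0.16 (SE 0.23) for Tesc, with edgeR adjusted p of 0.531, 0.879 and 0.861. Cilp was highest in mutant pup 3, at 1355 CPM with TMM scaling, and between 752 and 914 CPM in the other pups. Over all 10372 genes tested, 5079 had a positive and 5292 a negative log2 fold change. Of the 16 articular surface genes, which include Prg4, 14 had a positive and 2 a negative one, with a median of 0.15. In 4 of them every mutant pup lay above both WT pups, as in 14.3% of all genes tested. Of the 13 synovial lining genes, which also include Prg4, 9 were negative, with a median of -0.37. The spread of the lining genes between pups was wide, as for Clic5, at 94.0 and 395 CPM in the WT pups and at 250, 145 and 60.5 CPM in the mutant pups, with a log2 fold change of -0.66 (SE 0.96).

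Signaling genes were read from lists of the same kind, beside the 5079 of 10372 genes tested with a positive log2 fold change. Of 11 TGF-β and BMP receptor genes 10 had a positive log2 fold change (median 0.22) and none passed the test. In 6 of them every mutant pup lay above both WT pups, a pattern seen in 14.3% of all genes tested. Acvr1, a type I BMP receptor, stood at 132 and 150 CPM in the WT pups and at 177, 202 and 207 CPM in the mutant pups, a log2 fold change of 0.46 (SE 0.13, edgeR adjusted p = 0.279). Of 14 tested ligands of this family 9 were positive (median 0.12), with Bmp6 at 0.43 (SE 0.14, edgeR adjusted p = 0.335), and of 15 Smads and targets 8 were positive (median 0.02). Of 17 calcium entry and calcineurin-NFAT genes 11 were positive and 6 negative (median 0.16). Every mutant pup lay above both WT pups in 5 (14.3% of all genes tested) and below both in 2 (14.1% of all genes tested). The 2 were Calm3, a calmodulin gene, at -0.24 (SE 0.14, edgeR adjusted p = 0.604), and Nfatc3 at -0.21 (SE 0.15, edgeR adjusted p = 0.688). On the positive side were Nfatc1 at 0.36 (SE 0.12, edgeR adjusted p = 0.374), Rcan1, a calcineurin regulator and NFAT target, at 0.28 (SE 0.14, edgeR adjusted p = 0.567), and Trpv4 at 0.35 (SE 0.23, edgeR adjusted p = 0.674). Acvr1, Bmp6, Calm3, Nfatc3 and Nfatc1 were named after their values were seen.

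Among lists for the matrix, 14 of 19 chondrocyte matrix genes were positive (median 0.14) and 15 of 17 fibrous matrix genes (median 0.08), against 5079 of 10372 genes tested. Every mutant pup lay above both WT pups in 2 of the 19 and 3 of the 17, a pattern seen in 14.3% of all genes tested. Sox9 was at 0.40 (SE 0.16, edgeR adjusted p = 0.467). The 19 dissociation response genes were split between 9 positive and 10 negative values (median -0.01). The erythroid list stood out by size, with all 6 tested genes negative and a median of -1.43, and it did not pass for any gene. Every mutant pup lay below both WT pups in 5 of them, a pattern seen in 14.1% of all genes tested. Outside the 15 hemoglobin-led cells the list made up 0.00483% of UMIs, and without those cells 5 genes passed the genotype test in place of 6. Subcluster 7 formed 1.01% and 1.14% of the cells in the WT pups and 0.469%, 0.309% and 0% in the mutant pups. These shares rest on 3 and 7 cells in the WT pups and on 4, 1 and 0 in the mutant pups. Without these cells, which met cell cycle markers, the log2 fold change of Mki67 was -1.12 (edgeR adjusted p = 0.0071) and that of Cenpe -1.21, which no longer passed (adjusted p = 0.0708), while Top2a, Cenpf, Prc1 and Fam180a still did.

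The genotype effect was then compared with that in the other classes. In Col2a1-rich Prg4-high cells no gene of 13537 passed the genotype test (764 at an unadjusted p under 0.05) and in Prg4-low connective tissue cells no gene of 16104 (860). Mki67 had log2 fold changes of -0.48 (SE 0.16) and -0.49 (SE 0.09) in those classes, and Cenpf of -0.24 (SE 0.14) and -0.52 (SE 0.11), so for both genes the sign was the same in all 3 classes. Tests of the difference between the Prg4-high, Col2a1-low cells and Col2a1-rich cells gave edgeR adjusted p of 0.0745 for Cenpf, 0.107 for Cenpe, 0.836 for Prc1 and Fam180a and 1 for Mki67 and Top2a. The smaller effects of the other classes were therefore not shown to differ from those in the Prg4-high, Col2a1-low cells.

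The genotype effect differed between the Prg4-high, Col2a1-low cells and Col2a1-rich cells for 2 of 13526 genes (0.0148%, edgeR interaction with the pup as a block; 555 at an unadjusted p under 0.05), Fosl1 and Ifrd1. Fosl1 (chr19:5447698-5455938), a Fos-family transcription factor, was 21.1 and 14.7 CPM in the WT pups and 20.2, 49.2 and 43.6 CPM in the mutant pups in the former, and 52.8 and 41.1 CPM against 24.2, 43.4 and 53.3 CPM in the latter. In both classes mutant pup 3 was apart from the other mutant pups, and the difference of the effects was 1.30 on the log2 scale (SE 0.20, edgeR adjusted p = 0.0371). Ifrd1 (chr12:40203129-40223189), a transcriptional co-regulator, was 445 and 341 CPM against 456, 585 and 627 CPM in the former and 962 and 733 CPM against 627, 838 and 766 CPM in the latter, a difference of 0.70 (SE 0.12, edgeR adjusted p = 0.0437). Against Prg4-low connective tissue no gene of 14390 passed (742 at an unadjusted p under 0.05).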

How the data were processed

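Cells were isolated by the authors from the knees of 5 pups by collagenase digestion and captured as 1 BD Rhapsody library per pup. The authors deposited raw UMI counts of genes by cells for every pup, not normalized, with mm10 as the build per the labels. Cells with 200 to 6000 genes and at most 10% mitochondrial UMIs were kept. For each class and pup the counts of all cells were added up, and these sums were tested with the quasi-likelihood method of edgeR 4.0.16 (R 4.3.3), using TMM scaling, the filterByExpr filter, a robust fit and Benjamini-Hochberg adjusted p at 0.05, with DESeq2 1.42.0 as an alternative, and shares of cells were tested by exact permutation. CPM without TMM scaling was used between classes. The pup was the replicate, and the labels do not say more of how the samples are independent than that each is a pup. Subclusters came from scanpy 1.11.5 (analytic Pearson residuals within each pup, theta 100, 2000 variable genes, 30 components, 15 neighbours, Leiden resolution 0.5, seed 1). A marker counted as met at 1.5 times the other cells and a UMI in at least 10% of cells. No doublets were removed in the main results. The automatic threshold of scrublet called no cell in 4 pups, so the highest 6% of scores were left out as an alternative chosen after seeing the data, as were the runs without single subclusters.

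The members and the 36 gene lists were chosen with earlier results of these data known. Named genes were the given markers, list genes and up to 10 genes per direction past the threshold, the 20 leading genes, the highest list members, subcluster leaders and interaction calls, and others are marked as chosen after their values were seen. The scripts were tested on simulated data, where most changed genes were recovered and some unchanged genes were called. Promoters for Prg4 and Vit were not used here. Interactions between class and genotype were fitted with the pup as a block. Other steps ran in Python 3.11.15 with pandas 2.3.3 and scipy 1.17.1.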

Additional observations from a re-analysis of the deposited data

Results flagged for a closer look

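For 2 genes the WT to mutant difference was not the same in Prg4-high, Col2a1-low cells and in Col2a1-rich Prg4-high cells of the same pups, by an edgeR test of the difference itself with the pup as a block. For Fosl1 the difference of the effects was 1.30 on the log2 scale, with a higher level in mutant pups 4 and 5, but not in pup 3, than in the WT pups in the Prg4-high, Col2a1-low cells. Over 8 alternatives it stayed between 1.02 and 1.38 and passed in 4 (edgeR adjusted p from 1.41e-05 to 0.232). For Ifrd1 the difference was 0.70, between 0.63 and 0.78 over 8 alternatives, and it passed in 2 (edgeR adjusted p from 2.47e-05 to 0.269). Fosl1 belongs to the immediate-early genes in the wide sense, and the dissociation response list made up 0.954% to 1.34% of UMIs in the Prg4-high, Col2a1-low cells and 0.569% to 1.16% in Col2a1-rich cells across pups. The part of the dissociation response in these differences was not tested. No test for outlying pups was run within a genotype, since the genotypes had 2 and 3 pups. Single pups were left out in turn instead. The 2 interaction calls became 0 without mutant replicate 1 or mutant replicate 2 and 3 without mutant replicate 3.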

How the results depend on the processing

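The difference in the share of cells (-0.0918 percentage points) changed sign with a Prg4 minimum of 100 (0.0733), and ranged from -0.963 to 0.78 with 1 pup left out, being positive without WT replicate 2 (0.78), mutant replicate 2 (0.378) or mutant replicate 3 (0.292). The 6 genotype calls became 117 without the filter on low counts, 2 with a Prg4 minimum of 25 or a Col2a1 maximum of 100, 0 with a Prg4 minimum of 100 (832 at an unadjusted p under 0.05 by edgeR), 10 without the highest doublet scores, 10 by DESeq2, 54 in Xist-low pups (1 mutant pup only), 11 without subcluster 5 and 0 without subcluster 6, and ranged from 0 to 27 with 1 pup left out. The 2 interaction calls became 19 without the filter and 0 with a Col2a1 threshold of 400 (634 at an unadjusted p under 0.05 by edgeR), and ranged from 0 to 6 with 1 pup left out. The causes of these moves were not tested. RLE scaling gave 6 and 2 calls.

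Over 20 alternatives the 5 lower genes and Fam180a kept their direction in every one. Among these, the alternative without an upper limit on genes held the same cells as the main fit and so could not differ from it. The adjusted p missed the threshold in 9 of the 20 for Fam180a, 7 for Mki67 and 6 for Top2a, and in 11 of 19 for Prc1, 8 for Cenpe and 5 for Cenpf, for which DESeq2 gave no adjusted p. The value of Prg4, a gene of the rule and a description only, changed sign without WT replicate 1 (-0.11) or mutant replicate 1 (-0.01), with a range of -0.11 to 0.30 with 1 pup left out. Values not past the threshold changed sign for Vit without WT replicate 2 (-0.12, range -0.12 to 0.45), and for Tesc with a Col2a1 maximum of 100 (-0.10), without mutant replicate 1 (-0.18, range -0.18 to 0.29), without subcluster 2 (-0.024) and in Xist-low pups (-0.20). Leiden clustering gave 7 subclusters at resolution 0.25 and with seed 2, and 12 at resolution 1. No paired analysis was possible because each pup belongs to 1 genotype and the replicate numbers name pups within a genotype only. Tesc was seen in few cells, and the part of depth in this was not tested.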

Other observations

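Several gene groups that no comparison above turned on differed in level between the Prg4-high, Col2a1-low cells and the other classes, as a description without a test. The 11 genes of the CREB and orphan nuclear receptor list made up 0.280% to 0.341% of UMIs across pups, against 0.209% to 0.227% in Col2a1-rich Prg4-high cells and 0.172% to 0.203% in Prg4-low connective tissue cells. The TGF-β and BMP ligands made up 0.150% to 0.180%, against 0.0983% to 0.124% and 0.0972% to 0.110%, with Bmp2, a bone morphogenetic protein, at 241 to 313 CPM in the Prg4-high, Col2a1-low cells and 123 to 181 CPM in Col2a1-rich cells. Secreted Wnt antagonists ran the other way against Col2a1-rich cells, at 0.174% to 0.229% and 0.229% to 0.263%, with ranges that met at 1 end, and the glycolysis and hypoxia genes did as well, at 0.237% to 0.269% and 0.296% to 0.333%. Ntn1, which encodes the guidance protein netrin-1, was 411 to 803 CPM in the Prg4-high, Col2a1-low cells, 82.6 to 181 CPM in Col2a1-rich cells and 110 to 230 CPM in connective tissue.

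The mechanosensitive channel Piezo1 was also higher in the Prg4-high, Col2a1-low cells (227 to 298 CPM) than in Col2a1-rich cells (168 to 203 CPM), the reverse of Trpv4, while Piezo2 overlapped between these classes (17.0 to 32.7 and 15.3 to 31.4 CPM). Within the Prg4-high, Col2a1-low cells Trpv4 was 108 CPM in the articular surface-like subcluster 3 and 13.6 CPM in the lining-like subcluster 5. Thbs1, a matricellular gene, was 647 and 572 CPM with TMM scaling in the WT pups and 875.5, 972 and 1091 CPM in the mutant pups, a log2 fold change of 0.68 (SE 0.13, edgeR adjusted p = 0.0728), and it was one of the DESeq2 calls. Its subcluster level was highest in subcluster 3, at 2353 CPM. Thbs1, Piezo1, Piezo2 and Ntn1 were picked out here after their values were seen.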
